A study of Hordeum vulgare with 18 samples.

Results

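NAC proteins are a plant-specific family of transcription factors named after NAM, ATAF and CUC, its first known members. In this set of highland barley (hulless barley) libraries, a locus was taken as a NAC gene when the second part of its description named a NAC domain-containing protein or a NAC transcription factor. The rule found 97 loci, of which 80 had at least 1 read in any library. Those 80 are described here, out of 32529 loci with a read and 68630 loci in all. The transcription factor family column held no locus under the name NAC. It listed 79 of the 80 under NAM, the name of the DNA-binding domain, and left 1 (D1007_36621) without a family.

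Messenger RNA was sequenced from leaf and root at flowering, with 3 libraries in each of 6 groups. Plants grew in pots of 3.5 kg soil in which organic fertilizer supplied 0%, 40% or 100% of the nitrogen. The control (0%) pots received 357 mg urea, the 40% pots 215 mg urea with 1117 mg organic fertilizer, and the 100% pots 2793 mg organic fertilizer and no urea. Superphosphate (1545, 1443 and 1289 mg at 0%, 40% and 100%) and potassium sulfate (140, 122 and 96 mg) were lowered as the organic dose went up, so that total nitrogen, phosphorus and potassium stayed equal. The study asked how such replacement affects the plant's nitrogen metabolism. Whether libraries with one label came from different plants or pots is not stated, so every p-value reflects library-to-library spread, which may be technical.

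NAC factors act by binding short DNA motifs as dimers, and different branches of the family control different programmes. In wheat and barley the NAM genes speed leaf ageing and the movement of nitrogen, iron and zinc from leaves to grain. In Arabidopsis the NST and VND branches switch on secondary wall and vessel formation, CUC-related members set organ boundaries and root formation, and others respond to drought, salt, mitochondrial stress or DNA damage. Descriptions of the loci are best matches to proteins of Arabidopsis (54 loci), rice (18), barley (7) and wheat (1), so each number below is that of the matched protein and not a barley gene name. The 5 loci that the authors assembled from the reads have no D1007 number and are called here the assembled NAC7, NAC8, NAC18, NAC43 and NAM-B1 loci, by their matches. Several loci share 1 match, as the 6 matched to barley NAM-B1 do. No sequences are printed because the files and tables used here hold none for these loci.

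Library totals were 16489656 to 18985201 counts in leaf and 12970908 to 16862820 in root. Values below are counts divided by the library total and scaled to parts in 1e+06 (CPM), and levels of different loci are compared only per kilobase of the deposited gene length (RPKM). Light-harvesting and Rubisco small subunit loci summed to 46961 to 110379 CPM in leaf and 3.80 to 9.95 CPM in root, so the leaf label was borne out. The listed root markers did not mark root: nicotianamine synthases summed to 334 to 2497 CPM in leaf and 63.8 to 167 CPM in root. The 3 loci of Casparian strip membrane proteins had 2.61 to 5.22 CPM in the control leaves, 6.85 to 9.68 CPM in the 40% leaves and 41.9 to 56.9 CPM in the 100% leaves. The clock gene LHY, whose level follows the time of day, also moved with the groups, at 193 to 379 CPM in the control leaves, 326 to 476 CPM in the 40% leaves and 1831 to 2220 CPM in the 100% leaves. In roots LHY stood at 79.6 to 92.4, 106 to 168 and 476 to 639 CPM at 0%, 40% and 100%. The part of sampling time or tissue make-up in any difference between rates below was not tested. In bulk tissue, fewer cells of a type and less RNA per cell cannot be told apart.

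The NAC family made up more of the RNA in root than in leaf. Its 80 loci summed to 2250 to 3975 CPM in leaf libraries and 4371 to 5450 CPM in root libraries, and the ranges did not overlap. Leaf libraries had reads from 51 to 62 of the loci and root libraries from 67 to 70. No read was found in any leaf library for 12 loci, while every locus had a read in root. By mean RPKM, 47 loci stood above 1, 25 above 10 and 5 above 100 in leaf, against 55, 29 and 6 in root. The family was also uneven: the 5 highest loci held 43.8 to 64.2% of the family's CPM in a leaf library and 59.1 to 67.1% in a root library.

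Different members led in the 2 organs. In leaf the highest mean level was 333 RPKM for D1007_09503 (NAC83, in Arabidopsis VNI2, a repressor of vessel formation that also delays leaf ageing). Next came D1007_19698 (NAC21/22, in Arabidopsis NAC1, an auxin-responsive factor of lateral root formation) at 293 RPKM. D1007_36621 (rice NAC2, also called SNAC1, which in rice raises drought and salt tolerance) had 189.7 RPKM and D1007_13804 (rice NAC48, also called OsNAC6, another stress factor) 186 RPKM. In root D1007_36621 led by a wide margin with 930.2 RPKM, and it held 25.4 to 35.4% of the family's CPM in each of the 9 root libraries. It was followed by D1007_61260 (rice NAC74) at 283 RPKM, D1007_42541 (rice NAC71, also called OsNAC5, a stress factor) at 213 RPKM and D1007_08050 (NAC82, in Arabidopsis a mediator of nucleolar stress) at 201 RPKM.

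Leaf and root were compared within the control with edgeR's quasi-likelihood test on all 18 libraries, and adjusted p below is the Benjamini-Hochberg value over all loci tested, with a threshold of 0.05. Of the 67 NAC loci tested, 21 were higher and 33 lower in leaf than in root. That is 80.6% of them, beside 56.2% of all loci tested (25.9% higher and 30.3% lower). At 100% organic nitrogen 21 were higher and 29 lower, beside 63.1% of all loci (26.6% higher and 36.5% lower). Of the 54 calls in the control, 43 held in every alternative and with each library left out.

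Senescence-type members found by the rule stood mostly on the leaf side in the control. Matches to NAC42, a name on the senescence list, lie outside the rule and are given under other observations. All 8 senescence members found by the rule and tested were called. Of these, 7 were higher in leaf and 1 lower, beside 25.9% and 30.3% of all loci. The 8 had a median log2 fold change of 1.64, beside -0.05 over all loci. D1007_41116 (NAM-B2, by its wheat match) had 253, 35.2 and 248 CPM in control leaves and 12.6, 14.6 and 13.5 CPM in control roots. Every leaf library was above every root library, and the log2 fold change was 3.94 ± 0.78 (SE; adjusted p = 0.00045). D1007_47734 (NAM-B1) had 91.9, 113 and 78.5 CPM in leaf and 14.9, 12.9 and 23.2 CPM in root (log2 2.68 ± 0.49, adjusted p = 0.00020). The exception was D1007_12329, another NAM-B1 match, at 10.3, 0.641 and 23.2 CPM in leaf and 100.3, 83.02 and 63.1 CPM in root (log2 -2.64 ± 0.86, adjusted p = 0.015). Loci that share the NAM-B1 name were on opposite sides. At 100%, 5 of the 8 were higher in leaf and none lower, beside 26.6% and 36.5% of all loci. There D1007_41116 was not called. D1007_07007 (NAM-B1) had 237, 39.3 and 302 CPM in leaf and 69.4, 58.1 and 67.99 CPM in root, so that control leaf 2 lay below all control roots. Its difference of 1.78 ± 0.56 on the log2 scale (adjusted p = 0.013) lost its call without control leaf 3 (adjusted p = 0.069).

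Wall and vessel members were mostly root genes, and some had no read in leaf. Of 16 tested, 10 were lower and 3 higher in leaf, beside 30.3% and 25.9% of all loci. The 16 had a median log2 fold change of -4.62, beside -0.05 over all loci. D1007_07627 (NAC43, in Arabidopsis NST1, a switch for fibre walls) had 0.0533, 0.321 and 0.397 CPM in control leaves and 39.9, 45.5 and 68.2 CPM in control roots (log2 -7.41 ± 0.92, adjusted p = 5.2e-06). D1007_24826 (NAC76, in Arabidopsis VND2, a vessel switch) and D1007_07419 (NAC104, in Arabidopsis XND1, a brake on xylem formation) had no read in any leaf library. Against a floor of 3 counts per library they were at least 19.5-fold and 17.6-fold lower in control leaf than in root. The 3 that were higher in leaf were D1007_09503 (NAC83, log2 2.83 ± 0.32, adjusted p = 1.8e-06), D1007_00594 (NAC75, log2 2.06 ± 0.31, adjusted p = 3.1e-05) and D1007_10028 (NAC30, in Arabidopsis VND7). The last of these rested on 1 library, as its control leaves had 0.852, 34.9 and 3.86 CPM. Its log2 difference was 2.38 ± 0.92 (adjusted p = 0.037) with all libraries and -0.14 (adjusted p = 0.88) without control leaf 2.

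Members matched to NAC21/22 split between the organs although all 5 carry that name. D1007_62461 had no read in any of the 9 leaf libraries and 5.92, 7.23 and 6.64 CPM in control roots, so it was at least 40.4-fold lower in leaf (adjusted p = 3.0e-06). D1007_41914, D1007_57075 and D1007_57088 were lower in leaf as well, with log2 fold changes from -3.44 to -2.12. D1007_57075 lost its call (adjusted p 0.052 to 0.11) without control leaf 1 or 3 or control root 2 or 3. D1007_19698 went the other way, with 553, 1032 and 281 CPM in control leaves and 5.73, 5.40 and 4.29 CPM in control roots. The 2 groups lay far apart (log2 7.16 ± 0.83, adjusted p = 2.5e-06). Its share of the family's CPM, not scaled to gene length, was the largest of any NAC locus in 5 of the 6 control and 40% leaf libraries, at 14.8 to 32.2%.

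Other large organ differences involved NAC35, NAC90 and stress members. In Arabidopsis NAC35 is LOV1, which delays flowering and acts in the cold response. Its match D1007_49462 had 6.07, 8.33 and 10.96 CPM in control leaves and no read in control roots, at least 46.3-fold higher in leaf (adjusted p = 3.3e-06). A further match, D1007_12844, had 3.84, 10.9 and 8.17 CPM in control leaves and 3 reads in all in control roots, a ratio of 125 (95% counting interval 42.6 to 610.0; adjusted p = 6.0e-05). Of 7 stress members tested, 2 were higher and 3 lower in leaf, beside 25.9% and 30.3% of all loci. The lower ones were D1007_36621, D1007_02922 and D1007_42541, with log2 fold changes of -3.205, -2.583 and -1.477. D1007_42541 lost its call without control root 3 (adjusted p = 0.057). D1007_19975 (rice NAC67) and D1007_21797 (rice NAC71) were higher in leaf, by 4.14 ± 0.62 and 6.92 ± 1.31 on the log2 scale (adjusted p = 3.7e-05 and 0.00031). The leaf values of D1007_19975 spread from 8.29 to 74.8 CPM, against 2.49 to 2.84 CPM in root.

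On the root side, D1007_25056 (NAC71 of Arabidopsis, active in wound healing of cut stems) had 0.107, 0.214 and 0 CPM in control leaves and 46.4, 47.9 and 69.8 CPM in control roots (log2 -8.67 ± 1.12, adjusted p = 7.6e-06). Control leaves 1 and 3 lay under the floor of 3 counts (0.160 and 0.170 CPM), so this fold change is no firm size. D1007_09369 (NAC90, in Arabidopsis a restraint on leaf ageing) had 3 reads in control leaves against 10.2 to 17.2 CPM in control roots, 242 times as much in root (95% counting interval 82.5 to 1177). The assembled NAC8 locus (in Arabidopsis SOG1, the main switch of the DNA damage response) had 1 read in control leaves against 4.95 to 9.69 CPM in control roots, 435 times as much (interval 77.6 to 17211). These intervals cover counting error only. Other matches to the NAC8 protein lie outside the rule, as their descriptions lack a NAC name. Of these, D1007_06910 had means of 64.8 CPM in control leaves and 58.3 CPM in control roots. The means of D1007_12818, D1007_57266 and D1007_46264 were lower in leaf. They were 8.69, 1.64 and 0.269 CPM in control leaves and 14.98, 15.32 and 2.82 CPM in control roots. Beside 30.3% of all loci tested in the control, all 4 DNA damage and nucleolus members found by the rule were lower in leaf. Among them, D1007_59282 and D1007_14430 lost their calls when single libraries were left out. For D1007_59282 this was so without control leaf 1 or 2 or control root 2 (adjusted p 0.060 to 0.087). For D1007_14430 it was so for each library except control leaf 2 (0.053 to 0.15).

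Boundary and proteasome members also differed by organ. D1007_04211 (NAC100) had 0.533, 1.12 and 2.27 CPM in control leaves and 50.2, 50.1 and 65.3 CPM in control roots (log2 -5.20 ± 0.68, adjusted p = 8.7e-06). D1007_44419, matched to the same protein, had 39.8, 12.8 and 46.8 CPM in control leaves and 19.4, 15.3 and 15.3 CPM in control roots. It was called higher in leaf (1.22 ± 0.41, adjusted p = 0.020), although control leaf 2 lay below the roots, and lost the call without control leaf 1 or 3 or control root 2 or 3 (0.053 to 0.097). D1007_47071 (NAC78) had 74.5 to 81.8 CPM in control leaves and 160.2 to 166 CPM in control roots (log2 -0.81 ± 0.16, adjusted p = 0.00038). Its partner in Arabidopsis proteasome control, NAC53, is matched by D1007_05924, which had 103.9, 94.6 and 125 CPM in leaf and 90.3, 100.3 and 85.4 CPM in root and was not called (adjusted p = 0.067). The 13 NAC loci tested in no fit, both NAC86 matches of the phloem role among them, had at most 48 reads in any group of 3 libraries.

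**Figure D1:**
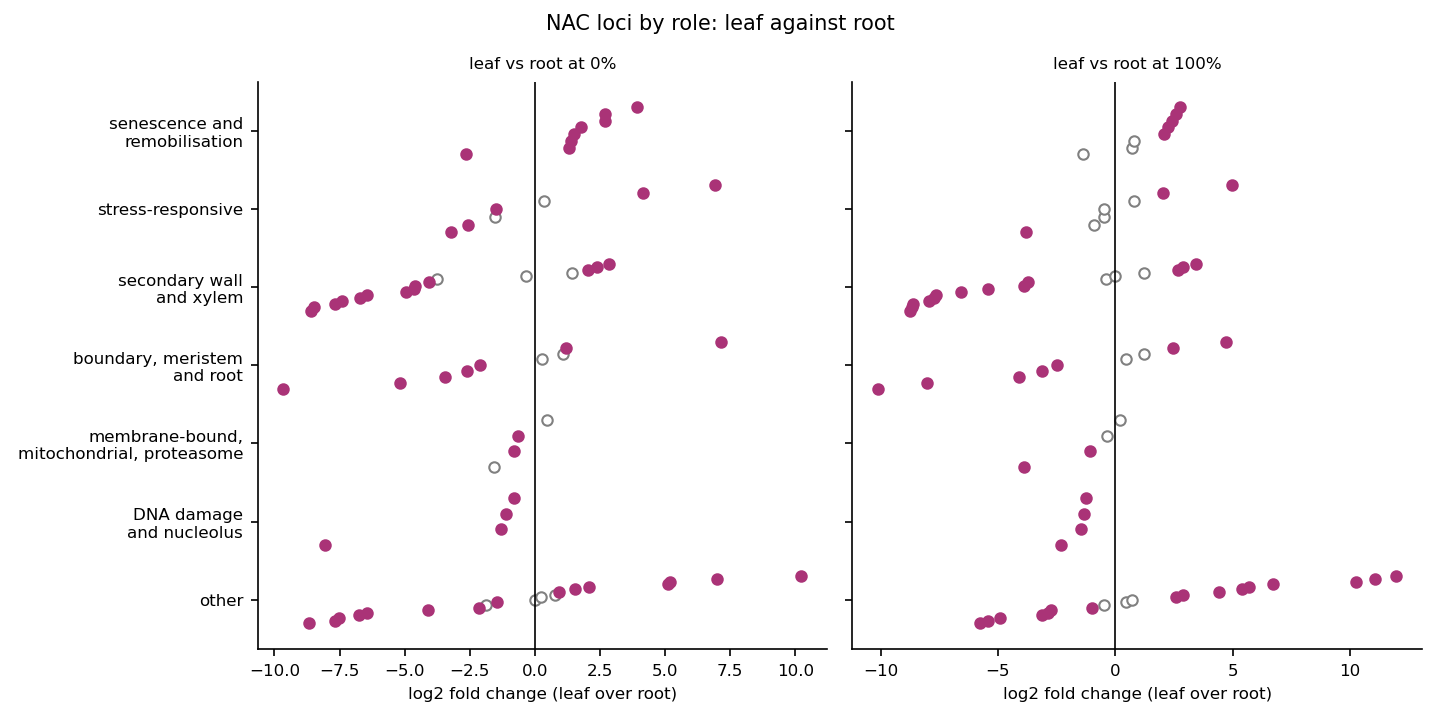
Log2 fold change of each tested NAC locus in leaf over root (x axis) by role (y axis), in the control (left panel) and at 100% organic nitrogen (right panel). Filled points passed an adjusted p of 0.05 and open points did not, and most wall and vessel members lie left of 0 while 7 of 8 senescence members lie right of it in both panels. Fitted values of loci with no read in 1 organ have no meaning as sizes.

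Leaves at 100% organic nitrogen were then compared with control leaves in a fit of the 9 leaf libraries. Of 54 NAC loci tested, 11 rose and 3 fell. This is 25.9% of them, near the 22.9% of all loci that were called (13% higher and 9.98% lower). The median log2 fold change was 0.33 over the NAC loci and -0.07 over all loci. Scaling by library size alone lowered the median of all loci to -0.33 and left 9 NAC loci higher and 3 lower, beside 1933 and 3261 of all loci in place of 2597 and 2000. The number called rested on single libraries: it was 2 without control leaf 3, 3 without control leaf 1, 9 without control leaf 2 and 6 without leaf 2 at 100%. Calls over all loci fell too, in that order to 1421 higher and 967 lower, 1595 and 1161, 2175 and 1492, and 2107 and 1516.

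Loci matched to rice NAC22, a factor linked to drought and salt tolerance in rice, were among those with the largest rises. D1007_15134 had 8.31, 69.3 and 2.65 CPM in 100% leaves and 0.373, 0.962 and 0.284 CPM in control leaves. The 100% leaves differed widely among themselves, but each was above every control leaf. The log2 fold change was 5.81 ± 1.19 (adjusted p = 0.0085), and it was the 1 call of this comparison that held in every alternative and with each library left out (log2 3.59 to 6.54).

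Near it on the same scaffold lie 2 more loci with the same match. D1007_15132, D1007_15134 and D1007_15135 are at SDOW01000133.1:1897442-1898856, 1917366-1918848 and 1963602-1965021 on the plus strand of the barley assembly, with gaps of 18510 and 44754 bases. D1007_15132 had 1.24, 20.9 and 1.41 CPM in 100% leaves and 0.480, 0.695 and 0.227 CPM in control leaves (log2 4.25 ± 1.30, adjusted p = 0.042). D1007_15135 had 1.59, 37.1 and 1.19 CPM against 0.959, 0.801 and 0.738 CPM (log2 4.19 ± 1.41, adjusted p = 0.059, not called). Leaf 2 of the 100% group was the highest library for all 3. Without it D1007_15132 fell to a log2 change of 1.75 (adjusted p = 0.26), and its call was also lost without any 1 of the 3 control leaves (0.080 to 0.14). The sources used here do not state how reads matching several copies were handled, so the values of these neighbours may share reads.

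A further rice NAC22 match elsewhere, D1007_29069, had 37.7, 80.1 and 18.4 CPM in 100% leaves and 8.90, 12.1 and 2.72 CPM in control leaves. Its groups did not overlap (log2 2.74 ± 0.73, adjusted p = 0.025). Its call was lost without leaf 2 at 100% or without control leaf 1 or 3 (adjusted p 0.071 to 0.079).

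Stress members went both ways. D1007_36621, the SNAC1-type locus, had 877, 632 and 215 CPM in 100% leaves and 99.3, 203 and 119 CPM in control leaves. All 100% leaves were above all control leaves, leaf 3 by little. It rose by 2.28 ± 0.49 on the log2 scale (adjusted p = 0.011) and missed the threshold only without control leaf 3 (0.052). It held the largest share of the family's CPM in leaves 1 and 2 at 100%, a ranking that is not scaled to gene length. D1007_02922 (rice NAC68, also called OsNAC4, a factor tied to cell death in rice) had 2.47, 2.59 and 4.29 CPM in 100% leaves and 10.3, 7.53 and 14.9 CPM in control leaves. The groups were apart, and it fell (log2 fold change -1.54 ± 0.48, adjusted p = 0.043). The call was lost without leaf 1 or 2 at 100% or control leaf 1 or 3 (0.089 to 0.14). The other stress members tested did not pass, among them D1007_13804 (OsNAC6-type) at 555, 453 and 172 CPM in 100% leaves and 365, 288 and 326 CPM in control leaves (adjusted p = 0.33).

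Of 8 senescence members tested, 1 fell and none rose, where 9.98% of all loci fell and 13% rose. The faller was D1007_41116 (NAM-B2), with 59.0, 32.1 and 20.7 CPM in 100% leaves and 253, 35.2 and 248 CPM in control leaves. Control leaf 2 lay inside the range of the 100% leaves. The log2 fold change was -2.00 ± 0.64 at an adjusted p of 0.0497. It did not pass with RLE scaling factors (0.055). It also did not pass without leaf 2 or 3 at 100% or control leaf 1 or 3 (0.12 to 0.15). Control leaf 2 stood apart in the same way for D1007_07007 (NAM-B1), which had 163, 122 and 44.4 CPM in 100% leaves and 237, 39.3 and 302 CPM in control leaves (adjusted p = 0.56). D1007_49933 (NAC100) had 275, 131 and 37.3 CPM and 337, 62.6 and 301 CPM in the same order (adjusted p = 0.70). The markers moved with it: mesophyll loci summed to 57746, 89665 and 46961 CPM in control leaves 1, 2 and 3, and the listed root loci to 1902, 591 and 2502 CPM. D1007_49933 belongs to the boundary list, and Arabidopsis NAC100 is a target of the microRNA miR164.

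Among the remaining leaf calls, D1007_14388 (NAC35) had 11.5, 20.2 and 27.7 CPM in 100% leaves and 10.1, 10.04 and 7.89 CPM in control leaves (log2 1.33 ± 0.33, adjusted p = 0.018). Its call was lost without leaf 3 at 100% (0.052) or control leaf 3 (0.069). D1007_47071 (NAC78, in Arabidopsis an activator of proteasome genes) had 114, 114 and 91.8 CPM against 74.5, 81.8 and 80.8 CPM, the smallest called rise at 0.68 ± 0.17 on the log2 scale (adjusted p = 0.022). It lost its call without leaf 1 or 2 at 100% or control leaf 1 or 3 (0.053 to 0.073), and with library size alone (log2 0.43, adjusted p = 0.12). D1007_44419 (NAC100) had 65.1, 109.6 and 48.1 CPM against 39.8, 12.8 and 46.8 CPM, where the lowest 100% leaf was only just above the highest control leaf (log2 1.41 ± 0.45, adjusted p = 0.048). Its call was lost without any library except leaf 3 at 100% (0.064 to 0.14), and with library size alone (0.085). Each of these loci rose, but none by more than the SNAC1-type locus.

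A pair of loci that were nearly silent in control leaf and well expressed in root also rose in 100% leaves. D1007_25056 (NAC71 of Arabidopsis) had 2.42, 12.8 and 0.734 CPM in 100% leaves and 0.107, 0.214 and 0 CPM in control leaves (log2 5.74 ± 1.57, adjusted p = 0.028). With control leaves 1 and 3 under the floor of 3 counts, its fold change is no firm size. D1007_26988 (NAC90) had 7.13, 22.4 and 3.44 CPM against 0.799, 1.98 and 1.19 CPM (log2 3.27 ± 0.97, adjusted p = 0.038). The groups of both were apart, with leaf 2 at 100% highest in each. Both remained far below their control root levels of 46.4 to 69.8 and 162 to 179 CPM. Both lost their calls without leaf 2 at 100% (adjusted p 0.12 each) or without any 1 control leaf (0.051 to 0.12). D1007_04211 (NAC100), equally low in leaf and well expressed in root, had 0, 0.113 and 0.621 CPM in 100% leaves and 0.533, 1.12 and 2.27 CPM in control leaves (adjusted p = 0.25). D1007_62461 had no read in either leaf group.

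D1007_28405 (NAC7, in Arabidopsis VND4, a vessel switch) had 41 reads over the 3 100% leaves, 0.825, 0.789 and 0.734 CPM, and none in control leaves. It was at least 4.79-fold higher (adjusted p = 0.021). The call was lost without any 1 control leaf (0.056 to 0.070) and with the replicate number as a block (0.059). Having no read in control leaves and 1 in 40% leaves, D1007_28405 passed the filter on low counts only through the 100% leaves, where it was high. Secondary wall cellulose synthases, the markers of lignified tissue, summed to at most 0.170 CPM in control leaves, 0.263 to 57.4 CPM in 40% leaves and at most 0.225 CPM in 100% leaves. The assembled NAC18 locus (in Arabidopsis a factor of the seed coat) had 37.9, 32.9 and 1.35 CPM against 2.504, 1.34 and 2.55 CPM, so leaf 3 at 100% lay among the controls. It was called nonetheless (log2 3.74 ± 0.95, adjusted p = 0.021), and the call was lost without leaf 1 at 100% or any 1 control leaf (0.051 to 0.070). The third fall was that of D1007_33096 (NAC41), with 28.05, 28.6 and 54.5 CPM against 157, 75.5 and 175 CPM (log2 -1.61 ± 0.46, adjusted p = 0.033). It was lost without leaf 1 or 2 at 100% or control leaf 1 or 3 (0.092 to 0.10).

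**Figure D2:**
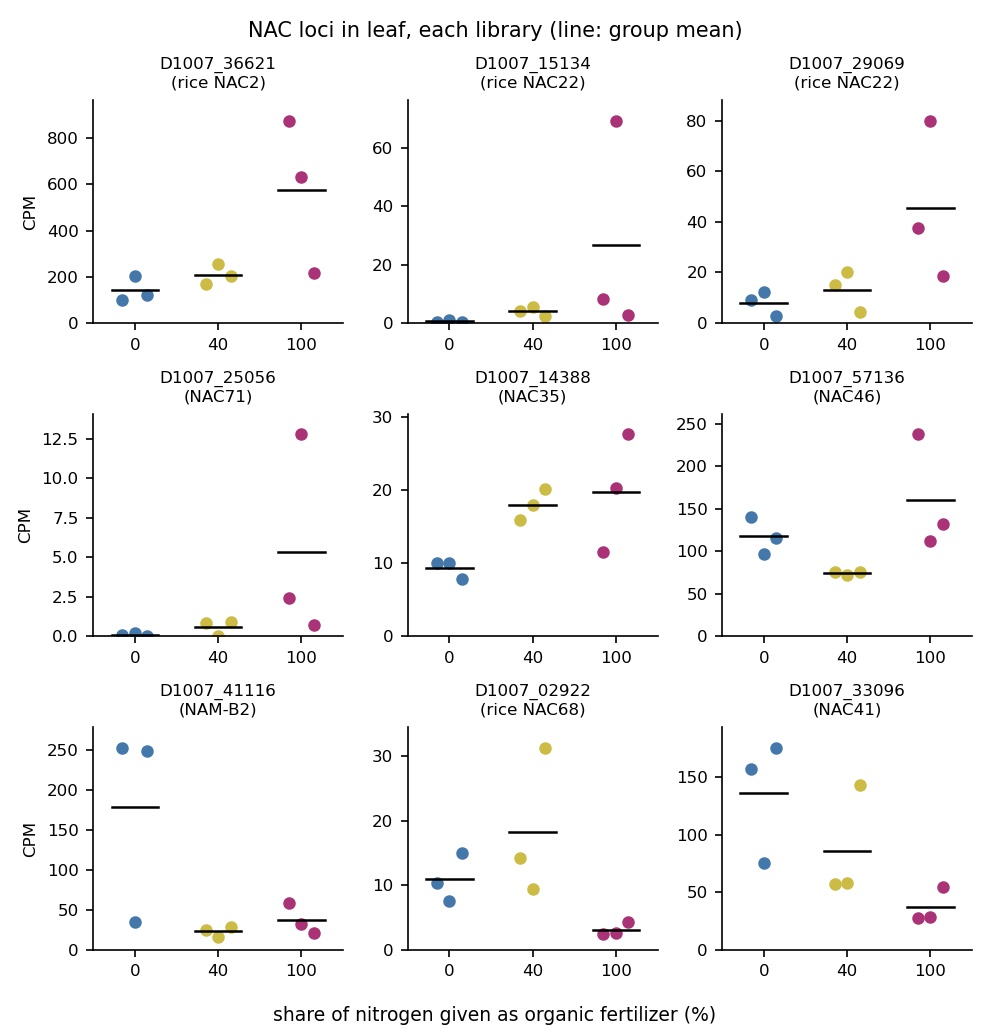
CPM of 9 NAC loci (y axis, linear, from 0) in each leaf library at 0, 40 and 100% organic nitrogen (x axis); points are libraries and lines are group means. D1007_36621 spans 215 to 877 CPM at 100% against 99.3 to 203 CPM in the control, and control leaf 2 of D1007_41116 (35.2 CPM) lies apart from the other control leaves.

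With 40% organic nitrogen no NAC locus passed in leaf, and nearly no locus of the genome did (0.00998% of 20032, with 0.00499% in each direction). By unadjusted p under 0.05 there were 14 of 54 NAC loci, beside 3635 of all 20032 loci tested. DESeq2 called 3 NAC loci higher and 2 lower, beside 747 and 838 of all loci. Without control leaf 2, edgeR called 2 NAC loci higher and 2 lower, beside 490 and 545 of all 20727 loci tested. The smallest adjusted p (0.093) was that of D1007_41116 (NAM-B2), at 24.4, 16.6 and 28.9 CPM in 40% leaves and 253, 35.2 and 248 CPM in control leaves. D1007_07007 (NAM-B1) had 30.6, 38.3 and 36.3 CPM against 237, 39.3 and 302 CPM (adjusted p = 0.12). For both, 40% leaves were uniform and all below the control leaves, of which leaf 2 was the nearest. D1007_10028 and D1007_10029, neighbours both matched to NAC30, had 27.5, 23.6 and 47.1 CPM and 30.02, 33.6 and 44.2 CPM in 40% leaves. In control leaves they had 0.852, 34.9 and 3.86 CPM and 0.586, 22.9 and 1.31 CPM (adjusted p = 0.56 and 0.35). Here too control leaf 2 was near the 40% leaves, and away from the other control leaves. D1007_07627 (NAC43) had 2.73, 0.948 and 10.6 CPM in 40% leaves and 0.0533, 0.321 and 0.397 CPM in control leaves (adjusted p = 0.16). Beside these wall members, the secondary wall cellulose synthases summed to 21.2, 0.263 and 57.4 CPM in 40% leaves and 0, 0.160 and 0.170 CPM in control leaves. The part of wall-forming tissue in these values was not tested.

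Leaves at 100% differed from those at 40% in 12 of 54 NAC loci (22.2%, beside 18.6% of all loci), with 10 higher and 2 lower, beside 11.1% and 7.52% of all loci. Library size alone gave 6 and 2, and turned the split over all loci from 2224 higher and 1506 lower to 1548 higher and 2651 lower. The number called was 1 without 40% leaf 1 or 3, 3 without 40% leaf 2, 5 without leaf 2 and 6 without leaf 1 at 100%. Calls over all loci were, in that order, 910 higher and 591 lower, 1152 and 782, 1228 and 818, 1857 and 1325, and 1693 and 1062. This comparison shares its 100% libraries with the one against the control, so loci called in both are not independent findings. D1007_02922 (OsNAC4-type) had 2.47, 2.59 and 4.29 CPM at 100% and 14.3, 9.38 and 31.3 CPM at 40%. It was lower with no overlap (log2 -2.28 ± 0.49, adjusted p = 0.013), and this was the 1 call that held in every alternative and with each library left out. Of 8 senescence members tested, 2 were higher at 100% than at 40%, where 11.1% of all loci were. D1007_57136 (NAC46, in Arabidopsis a promoter of chlorophyll breakdown) had 238, 112 and 132 CPM at 100% and 75.7, 72.4 and 75.96 CPM at 40% (log2 1.37 ± 0.30, adjusted p = 0.014). Its call was lost without 40% leaf 1 (0.065) or 3 (0.052). D1007_49854 (barley NAM-2) had 17.97, 20.2 and 15.1 CPM against 11.9, 4.90 and 12.5 CPM (log2 1.13 ± 0.33, adjusted p = 0.040), and was lost without any 1 of the 6 libraries (0.050 to 0.085), with library size alone (0.10) and with all 18 libraries in 1 fit (0.057). Control leaves had 140.0, 97.2 and 116 CPM of D1007_57136 and 20.8, 15.97 and 17.5 CPM of D1007_49854, so the 40% leaves were the low group for both. Mesophyll loci summed to 46961 to 89665 CPM in control leaves, 92669 to 110379 CPM in 40% leaves and 51515 to 75503 CPM in 100% leaves, and their part in these differences was not tested.

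Of the other loci higher at 100% than at 40%, D1007_61260 (rice NAC74) had 308, 151 and 99.3 CPM at 100% and 87.1, 67.4 and 55.04 CPM at 40% (log2 1.68 ± 0.40, adjusted p = 0.018). D1007_09503 (NAC83), the leading leaf member, had 459, 198 and 469 CPM against 168, 205 and 228 CPM, with overlap at leaf 2 of the 100% group (log2 1.17 ± 0.36, adjusted p = 0.048). D1007_09425 (NAC56, in Arabidopsis a factor of the seed coat) rose by 1.68 ± 0.43 (adjusted p = 0.025). It had 27.0, 25.0 and 14.2 CPM at 100% and 8.73, 6.95 and 8.96 CPM at 40%. D1007_49462 (NAC35) was the second locus that was lower, at 3.36, 8.85 and 9.71 CPM against 21.6, 20.1 and 37.2 CPM (log2 -1.59 ± 0.43, adjusted p = 0.029). Its control leaves, at 6.07 to 10.96 CPM, were like the 100% leaves, while the NAC35 match D1007_14388 was at 15.9 to 20.1 CPM in 40% leaves, above all control leaves. D1007_61260 lost its call without any 1 of the 40% leaves (0.058 to 0.072), and D1007_09425 and D1007_49462 without any library except leaf 3 at 100% (0.054 to 0.085 and 0.051 to 0.11). D1007_09503 lost it without any library except leaf 2 at 100% (0.10 to 0.16), and with library size alone (0.082).

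D1007_36621, D1007_44419, D1007_47071, the assembled NAC18 locus and D1007_28405 were also higher at 100% than at 40%. Their log2 fold changes were 1.70 ± 0.48, 1.84 ± 0.46, 0.70 ± 0.17 and 4.15 ± 0.97 (adjusted p = 0.037, 0.022, 0.023 and 0.018), and D1007_28405 had 41 reads against 1, a ratio of 40.8 (95% counting interval 6.93 to 1651; adjusted p = 0.042). D1007_36621 lost its call without leaf 1 or 2 at 100% or any 1 of the 40% leaves (0.070 to 0.14), and so did D1007_47071 (0.052 to 0.088). With library size alone both missed the threshold as well (0.052 and 0.12). D1007_44419 lost it without leaf 2 at 100% or any 1 of the 40% leaves (0.056 to 0.084), the assembled NAC18 locus without 40% leaf 1 (0.079) or 3 (0.068), and D1007_28405 without any 1 of the 6 libraries (0.081 to 0.13) or with no filter on low counts (0.090).

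**Figure D3:**
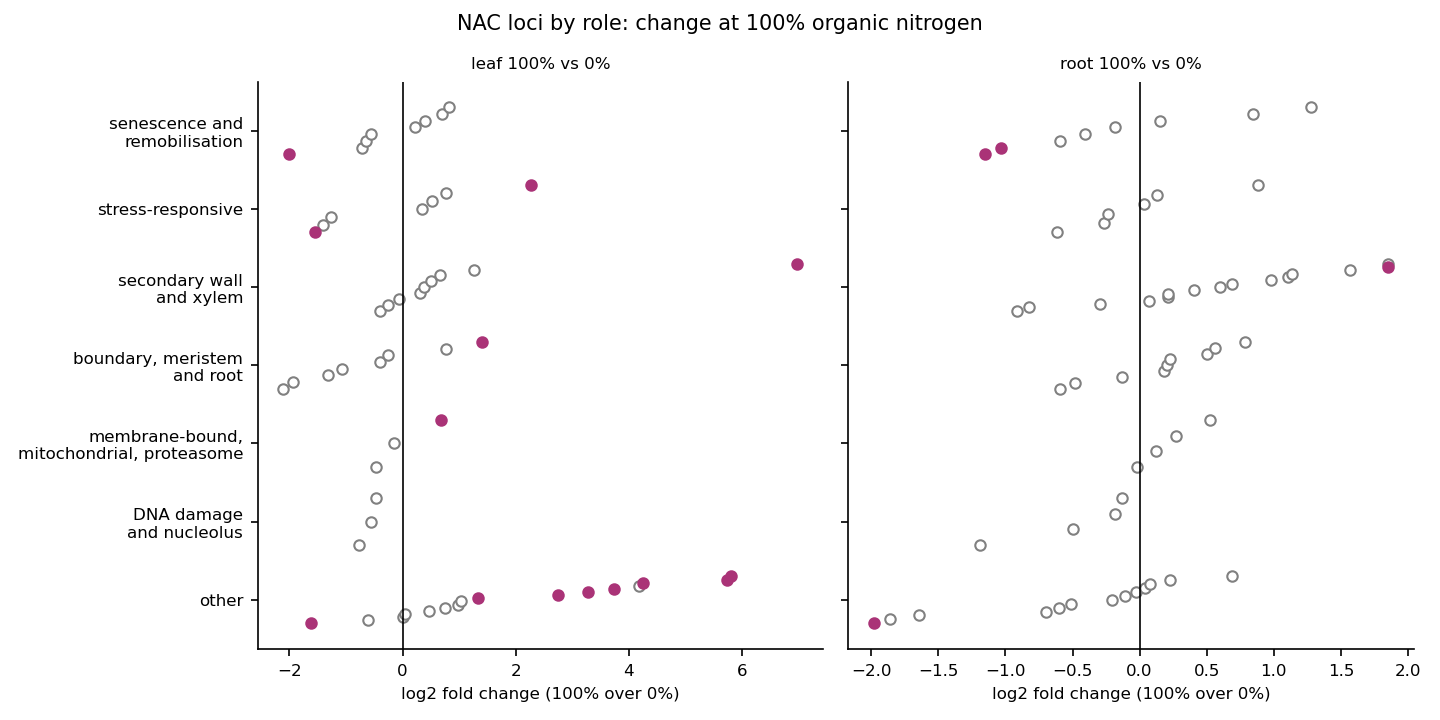
Log2 fold change of each tested NAC locus at 100% over 0% organic nitrogen (x axis; scales differ) by role (y axis), in leaf (left panel, 54 loci) and root (right panel, 59 loci). Filled points passed an adjusted p of 0.05: 11 rises and 3 falls in leaf, 1 rise and 3 falls in root.

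In root, 59 NAC loci were tested at 100% against 0%. Of these 1 rose and 3 fell, 6.78% of them beside 10.2% of all loci (4.69% higher and 5.54% lower). RLE factors and library size alone each gave 2 higher and 3 lower, and DESeq2 gave 7 higher and 6 lower. For all loci these 3 settings gave 1028 and 1204, 1200 and 1060, and 1844 and 1990. D1007_14310 (NAC73, in Arabidopsis SND2, an activator of secondary wall genes) had 18.3, 6.58 and 19.9 CPM in 100% roots and 5.60, 3.80 and 2.78 CPM in control roots. The groups were apart, root 2 at 100% nearest the controls, and the log2 fold change was 1.85 ± 0.40 (adjusted p = 0.022). The NAC90 match D1007_09369 fell to 3.17, 3.50 and 3.66 CPM in 100% roots, against 17.2, 12.3 and 10.2 CPM in control roots (log2 -1.98 ± 0.48, adjusted p = 0.031). Both other falls were NAM-B1 matches. The assembled one had 5.001, 4.66 and 5.46 CPM in 100% roots and 12.8, 10.1 and 7.25 CPM in control roots (log2 -1.03 ± 0.22, adjusted p = 0.021). D1007_07007 had 15.8, 43.5 and 32.3 CPM against 69.4, 58.1 and 67.99 CPM (log2 -1.15 ± 0.29, adjusted p = 0.036). None of the 4 calls survived leaving out single libraries. The number called was 0 without root 3 at 100% or control root 2, 1 without control root 1, and 2 without root 1 at 100% or control root 3. Among all loci, in that order, 370 were higher and 418 lower, 226 and 345, 454 and 675, 483 and 591, and 421 and 488. D1007_14310 was lost without root 1 or 3 at 100% or control root 2 or 3 (0.069 to 0.094), D1007_09369 without any 1 library (0.067 to 0.098), the assembled NAM-B1 locus without any except control root 3 (0.051 to 0.075), and D1007_07007 without root 3 at 100% or any 1 control root (0.086 to 0.10). In a fit of all 18 libraries, whose spread is larger than that of root alone, the 4 had adjusted p from 0.051 to 0.39.

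Of 15 wall members tested in root at 100% against 0%, D1007_14310 alone was called, 6.67% of them beside 10.2% of all loci. Their median log2 fold change was 0.60, beside -0.00 over all loci, a description of values of which all but 1 did not pass. The assembled NAC43 locus had 3.48, 6.37 and 9.18 CPM in 100% roots and 1.13, 1.07 and 2.72 CPM in control roots (log2 1.85 ± 0.52, adjusted p = 0.0502). Secondary wall cellulose synthases, which NAC43- and NAC73-type factors control in Arabidopsis, summed to 8.05 to 17.4 CPM in control roots, 88.8 to 234 CPM in 40% roots and 51.0 to 71.8 CPM in 100% roots. The NST1 match of higher level, D1007_07627, had 87.2, 114 and 58.02 CPM in 100% roots and 39.9, 45.5 and 68.2 CPM in control roots, which overlapped (adjusted p = 0.17).

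At 40% against 0% no NAC locus was called in root, where 0.306% of all loci were (0.164% higher and 0.142% lower). By unadjusted p there were 11 of 59, beside 3295 of all 21895 loci tested. DESeq2 called 4 NAC loci higher and 3 lower, beside 609 and 546 of all loci. The smallest adjusted p was 0.083, for the root-only D1007_62461 (NAC21/22) with 21.5, 20.1 and 15.2 CPM in 40% roots and 5.92, 7.23 and 6.64 CPM in control roots. Its 40% roots were all higher than its control roots. Between 100% and 40% roots, 1 NAC locus was higher and 1 lower (3.39%, beside 4.59% of all loci, 2.4% higher and 2.19% lower). The higher one was the assembled NAC43 locus, at 3.48, 6.37 and 9.18 CPM against 0.983, 0.823 and 1.93 CPM (log2 2.31 ± 0.53, adjusted p = 0.042). The lower one was D1007_09369, with 3.17, 3.50 and 3.66 CPM at 100% and 30.3, 20.9 and 6.01 CPM at 40% (log2 -2.50 ± 0.48, adjusted p = 0.026). Root 3 at 40% was much lower than the others but above the 100% roots. Both calls were lost without any 1 library except root 3 at 40% (0.058 to 0.13 and 0.055 to 0.090).

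**Figure D4:**
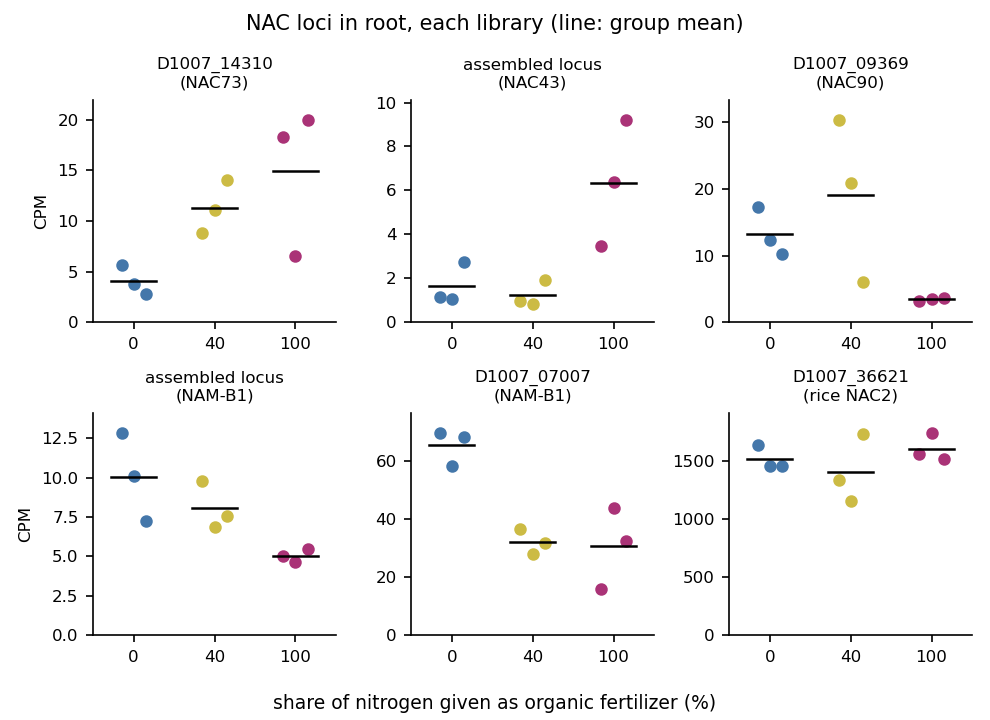
CPM of 6 NAC loci (y axis, linear, from 0) in each root library at 0, 40 and 100% organic nitrogen (x axis); points are libraries and lines are group means. D1007_14310 reaches 19.9 CPM at 100% against at most 5.60 CPM in the control, D1007_09369 is at 3.17 to 3.66 CPM at 100%, and D1007_36621 is at 1158 CPM or more in every library.

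The change at 100% organic nitrogen differed between leaf and root for 12 of 67 NAC loci (17.9%, beside 15.9% of all loci, 8.71% more positive and 7.2% more negative in leaf), tested as the difference of the 2 changes on all 18 libraries. It was more positive in leaf for 11 and more negative for 1. Library size alone gave 10 and 5, beside 1430 and 3280 of all loci in place of 2095 and 1732. For 8 of the 12 the call held with each library left out, and for 7 it held in every other alternative too. D1007_36621 (SNAC1-type) is the clearest at high level: 877, 632 and 215 CPM in 100% leaves and 99.3, 203 and 119 CPM in control leaves, but 1564, 1739.6 and 1517 CPM in 100% roots and 1641, 1461 and 1458 CPM in control roots. Leaf values were apart and root values overlapped, and the difference of changes was 2.28 ± 0.56 on the log2 scale (adjusted p = 0.013).

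D1007_29069 (rice NAC22) had 1.27, 4.59 and 3.47 CPM in 100% roots and 7.17, 8.07 and 12.3 CPM in control roots, below the controls, whereas its 100% leaves were above theirs. Its difference of changes was 4.42 ± 0.98 (adjusted p = 0.0078). D1007_14388 (NAC35) had 3.61, 4.18 and 4.10 CPM in 100% roots and 6.29, 4.33 and 6.70 CPM in control roots, again opposite to leaf (1.97 ± 0.41, adjusted p = 0.0054). D1007_26988 (NAC90) had 90.2, 166 and 65.9 CPM in 100% roots and 179, 162 and 165 CPM in control roots (4.01 ± 1.03, adjusted p = 0.016). Neither root change was called on its own, at adjusted p of 0.14 for D1007_14388 and 0.16 for D1007_26988, nor was that of D1007_29069 (0.076). D1007_25056 (NAC71 of Arabidopsis) was level in root, at 56.2, 63.9 and 48.2 CPM against 46.4, 47.9 and 69.8 CPM (5.81 ± 1.33, adjusted p = 0.0092). Its control leaves 1 and 3 lay under the floor of 3 counts, so 5.81 is no firm size.

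The assembled NAM-B1 locus had 27.7, 15.2 and 26.2 CPM in 100% leaves and 22.3, 25.5 and 14.99 CPM in control leaves, which overlapped, while it fell in root. The difference of changes was 1.46 ± 0.38 (adjusted p = 0.016), and library size alone took it just past the threshold (0.050). D1007_15134 and D1007_15132 (rice NAC22) stayed below 1 CPM in every control and 100% root library, and their differences were 5.92 ± 1.55 and 5.17 ± 1.62 (adjusted p = 0.018 and 0.040). The call of D1007_15134 was lost without leaf 2 at 100% (0.055). That of D1007_15132 was lost without any library except leaf 1 or 3 at 100% (0.051 to 0.20).

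D1007_41116 (NAM-B2) was the exception in direction. It had 18.6, 10.1 and 75.8 CPM in 100% roots and 12.6, 14.6 and 13.5 CPM in control roots, with root 3 at 100% far above the rest. Its difference of changes was -3.24 ± 1.01 (adjusted p = 0.039), and it was lost without any library except leaf 1 at 100%, control leaf 2, or root 1 or 2 at 100% (0.072 to 0.16). Called as well were 3 loci with 0 to 3 reads in control leaves. D1007_09369 (NAC90) had 0.707, 11.05 and 0.0564 CPM in 100% leaves and 3 reads in control leaves, and fell in root (adjusted p of the difference 0.011). The assembled NAC8 locus had 25 reads in 100% leaves and 1 in control leaves, against 162 in 100% roots and 389 in control roots (adjusted p = 0.016). D1007_28405 (NAC7) had 41 reads and none in the same leaves, against 7 and 5 reads in the roots (adjusted p = 0.028). Its call was lost without any 1 control leaf, root 3 at 100% or control root 1 or 3 (0.054 to 0.092), and with no filter on low counts (0.056). At 40% organic nitrogen the change differed between the organs for none of the 67 loci, beside 1.9% of all loci (0.674% more positive and 1.22% more negative in leaf). There were 16 by unadjusted p, beside 4365 of all 24046 loci tested. DESeq2 called 3 NAC loci more positive and 2 more negative in leaf, beside 784 and 1043 of all loci. Without control leaf 2, edgeR called 2 and 3, beside 495 and 853 of all loci.

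**Figure D5:**
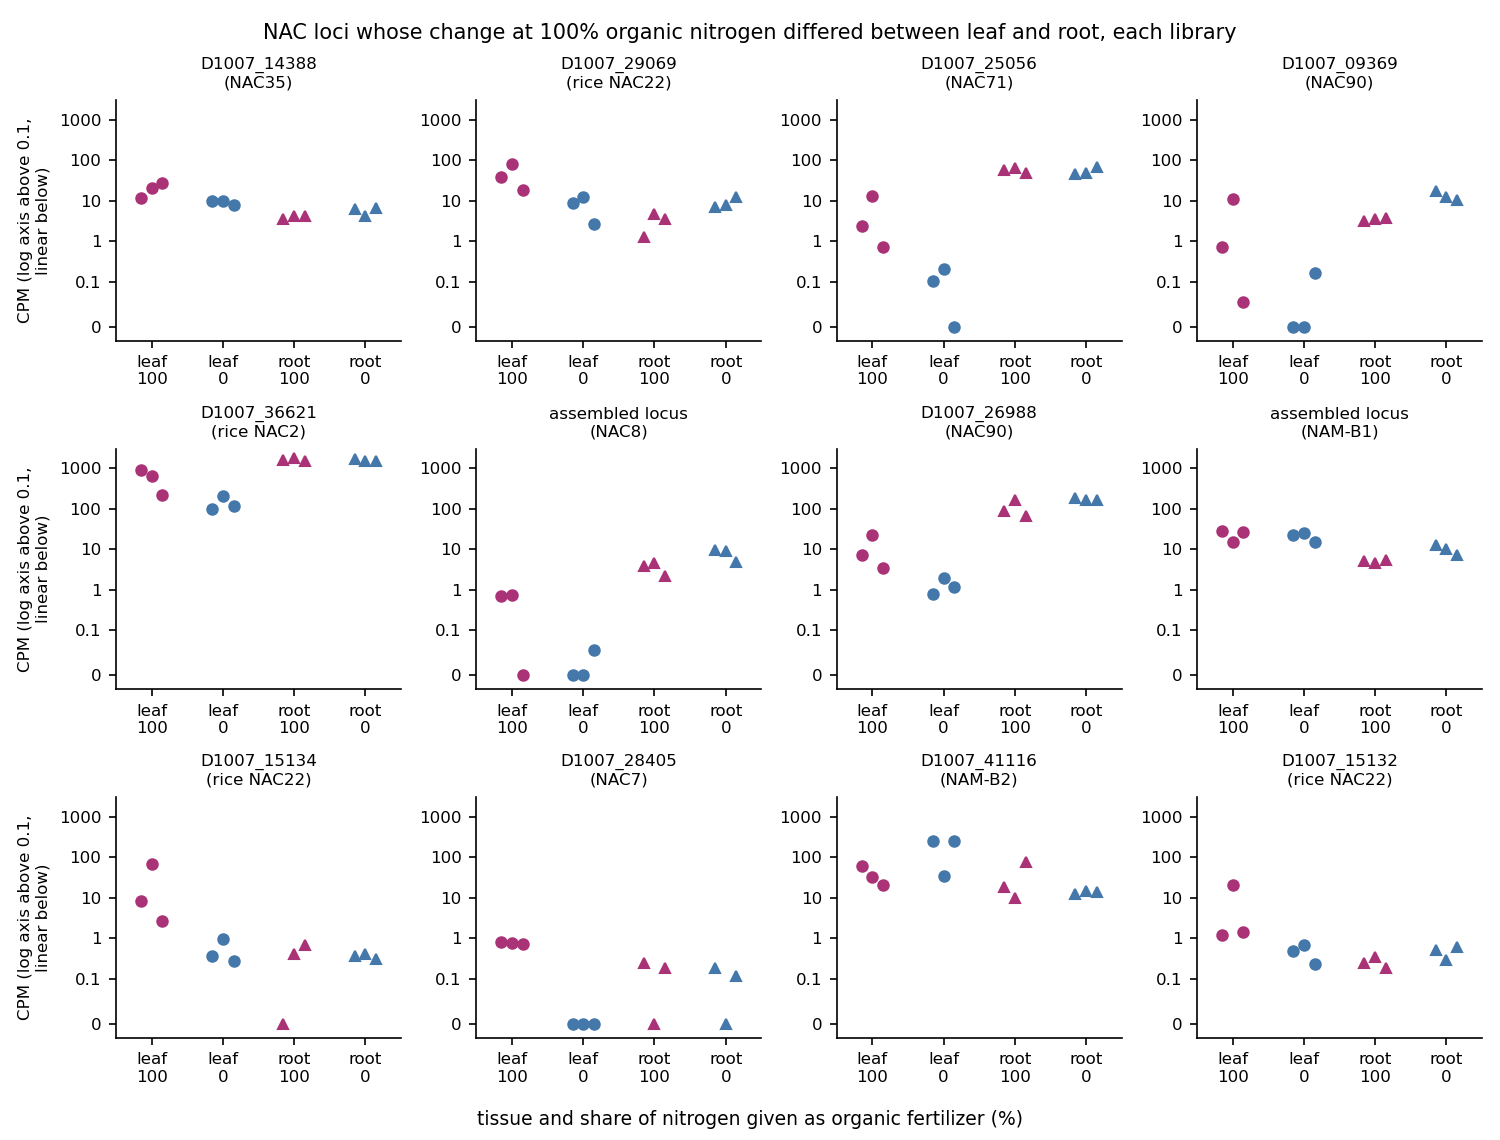
CPM of the 12 NAC loci whose change at 100% organic nitrogen differed between the organs, in each library of 100% and control leaf (circles) and root (triangles). The y axis is logarithmic above 0.1 CPM and linear below; D1007_41116 is the 1 locus whose change was more negative in leaf.

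Genes that NAC factors are known to act with were counted from lists of descriptions. In leaf at 100% against 0%, 6 of 17 tested secondary wall loci rose and none fell (over all loci 13% rose and 9.98% fell), among them D1007_34931 (COBRA-like 3, 103.5 ± 48.7 CPM in 100% leaves and 39.9 ± 2.49 CPM in control leaves; SD, n = 3 each). In root 13 of 47 rose and 1 fell at 100%, where 4.69% of all loci rose and 5.54% fell. At 40%, 6 rose and none fell, where 0.164% of all loci rose and 0.142% fell. The risers in 100% roots included the secondary wall cellulose synthases CESA4, CESA7 and CESA9, of which D1007_24041 (CESA9) had 27.9 ± 4.70 CPM in 100% roots and 5.75 ± 1.08 CPM in control roots (log2 2.23 ± 0.43, adjusted p = 0.014). The 1 locus that fell was D1007_56949 (laccase-9). Beside these, 1 NAC wall member was called in each organ at 100% against 0%, D1007_28405 of 9 tested in leaf and D1007_14310 of 15 in root. Over all loci 22.9% were called in leaf and 10.2% in root. D1007_28405 passed the filter on low counts only through the 100% leaves.

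Of 6 chlorophyll breakdown loci, some of them known targets of NAC46 in Arabidopsis, 3 were higher in 100% than in 40% leaves, as were 11.1% of all loci. Against the control 1 fell at 100%, as did 9.98% of all loci. The last was D1007_52605 (pheophorbide a oxygenase), with 281 ± 131 CPM in 100% leaves and 1089 ± 478 CPM in control leaves (log2 -1.69 ± 0.44, adjusted p = 0.024). D1007_08947 (STAY-GREEN, which starts chlorophyll breakdown) had 165 ± 87.4 CPM in 100% leaves and 18.6 ± 3.55 CPM in 40% leaves (log2 3.40 ± 0.79, adjusted p = 0.017). Control leaves had 448 ± 341 CPM of it. Of 12 remobilisation loci tested in leaf, 2 metal-nicotianamine transporters fell at 100% against 0% (9.98% of all loci fell), D1007_18339 (YSL9, log2 -2.02 ± 0.41, adjusted p = 0.0083) and D1007_46475 (YSL5, -0.90 ± 0.26, adjusted p = 0.032). In root 5 of 21 rose and 1 fell, where 4.69% of all loci rose and 5.54% fell.

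Abscisic acid loci, which act upstream of SNAC-type factors in rice, were called in leaf at 100% in 39 of 96 cases, 29 higher and 10 lower, beside 22.9% of all loci. In root 4 of 100 rose and 8 fell, beside 10.2% of all loci. Most of the leaf risers were protein phosphatases 2C, a large family of which only some act in abscisic acid signalling. D1007_28942 (NCED1, of the rate-limiting step of synthesis) fell to 5253 ± 2764 CPM in 100% leaves, against 23360 ± 7790 CPM in control leaves (log2 -1.89 ± 0.46, adjusted p = 0.017), and D1007_41880 (the kinase SAPK2) had 241 ± 190.3 CPM against 43.5 ± 5.001 CPM (log2 2.72 ± 0.54, adjusted p = 0.0074). Of 25 ethylene loci in leaf 5 rose and 3 fell at 100%, beside 22.9% of all loci called in either direction. Of 28 in root 1 rose and 6 fell, beside 10.2%. No alternative oxidase among 4 tested, the usual readout of NAC17 in Arabidopsis, was called against the control in either organ. In 100% against 40% leaves 1 of the 4 was higher, where 11.1% of all loci were.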

How the data were processed

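The deposited table gives read counts per locus for all 18 libraries, with a gene length, a position and a description. Per the submitters' processing notes the authors used CASAVA 1.8, fastp, HISAT2 2.0.5 and featureCounts 1.5.0-p3, and DESeq2 1.20.0 for their own tests. The notes name the mouse builds GRCm38 and mm10, whereas the loci lie on barley scaffolds, and 5073 loci are named as assembled from the reads (5 NAC loci). Strand and multi-mapping settings are not stated in the labels. Per the labels' protocols RNA was extracted with TRIzol, and the titles say leaf and root where the design text says parts above and below ground.

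From the counts, CPM used the library total and RPKM the deposited length. Tests were run with edgeR 4.0.16 (R 4.3.3): TMM factors, filterByExpr (minimum count 10, minimum total 15), the quasi-likelihood F test and Benjamini-Hochberg adjustment over all loci. Leaf (9 libraries, 20032 loci, 6 residual degrees of freedom, biological coefficient of variation 45.8%) and root (9, 21895, 6, 27.7%) were fitted apart for rates, and together (18, 24046, 12, 38.7%) for organs. SE is the log2 fold change divided by the square root of F. A fold against a group with no read uses a floor of 3 counts per library. Intervals and floors cover counting error only. Alternatives were RLE factors, library size alone, no filter, DESeq2 1.42.0, all libraries in 1 fit, a replicate block and each library left out. The procedure was also run on simulated counts with known changes, and its outcome is not given here. Those counts were drawn as independent libraries, so they do not bear on calls that rest on single libraries.

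The members, roles and lists were chosen with earlier results of these data known. All called loci were named for comparisons of rates, with the 8 of highest RPKM in each organ and the largest organ differences. After the annotations were read, rice NAC76 and Arabidopsis NAC71 were put under other roles, NAC86 under phloem and NAM-2 under senescence. A comparison with all other transcription factors was left out because the family column also holds other protein families.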

Additional observations from a re-analysis of the deposited data

Results flagged for a closer look

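The change at 100% against 0% organic nitrogen differed between leaf and root for 12 NAC loci, by the test of the difference itself (edgeR's quasi-likelihood test on 18 libraries, adjusted over all loci). The difference, leaf change minus root change on the log2 scale, was 1.97 for D1007_14388, 4.42 for D1007_29069, 5.81 for D1007_25056, 2.28 for D1007_36621, 4.01 for D1007_26988 and 1.46 for the assembled NAM-B1 locus. It was 5.92 for D1007_15134, 5.17 for D1007_15132 and -3.24 for D1007_41116. The fitted differences of D1007_09369 (8.23), the assembled NAC8 locus (5.73) and D1007_28405 (6.64) involve groups with 0 to 3 reads and are no measure of size. That of D1007_25056 (5.81) rests on control leaves of which 1 and 3 lay under the floor of 3 counts, so it is no firm size either.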

How the results depend on the processing

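Organ differences depended least on the processing. In the control 43 of 54 calls held in every alternative, and the 1 reversal was D1007_10028, whose log2 difference ran from -0.14 to 2.93 as single libraries were left out. For rates, the NAC loci called in leaf at 100% against 0% were 9 with the replicate block and 2 to 17 with a library left out. Of all loci, the block called 2175 higher and 1482 lower. Leaving a library out gave 1421 to 2543 higher and 967 to 1810 lower. In leaf at 40% against 0% there were 5 with DESeq2, 4 with all 18 libraries in 1 fit and 0 to 4 with a library left out. The same settings called 747 higher and 838 lower, 539 and 979, and 0 to 490 and 0 to 545 of all loci. At 100% against 40% in leaf there were 22 with DESeq2, 23 with all libraries in 1 fit and 1 to 16 with a library left out. For all loci these were 3200 higher and 2497 lower, 3609 and 3091, and 910 to 2158 and 591 to 1331. In root at 100% against 0% there were 13 with DESeq2, 0 with all libraries in 1 fit and 0 to 5 with a library left out. Counts over all loci were 1844 higher and 1990 lower, 228 and 273, and 226 to 1099 and 345 to 987. In root at 40% against 0% DESeq2 called 7, beside 609 higher and 546 lower of all loci. At 100% against 40% in root there were 6 with DESeq2, 0 with all libraries in 1 fit and 0 to 3 with a library left out. Of all loci, DESeq2 called 1168 higher and 1201 lower, and the 1 fit of all libraries 92 and 91. Without root 3 at 40%, where 3 NAC loci were called, 378 of all loci were higher and 494 lower. Without root 2 at 40%, where no NAC locus was called, these were 143 and 176. For the organ difference in the change at 40% there were 5 with DESeq2 and 0 to 5 with a library left out. Beside them stood 784 more positive and 1043 more negative of all loci with DESeq2. With a library left out these were 1 to 495 and 1 to 853. The cause was not tested. Same-numbered libraries had residual correlations from -0.06 to 0.12 within leaf, -0.16 to 0.16 within root and -0.07 to 0.08 between leaf and root. Most of these pairs are of different rates. For leaf and root of 1 rate and number they ran from 0.004 to 0.080, except -0.017 for number 2 of the control. Whether such libraries share plants cannot be told from these values, and the main tests took all libraries as independent. With the replicate block, calls lost in leaf included D1007_44419 (adjusted p = 0.10) and D1007_41116 (0.070) at 100% against 0%, and D1007_09503 (0.089) and D1007_28405 (0.097) at 100% against 40%. At a floor of 3 counts, levels below 0.158 to 0.231 CPM cannot be told from absence.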

Other observations

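Loci with the NAM domain label but no NAC name in the description were also examined. There were 40 with a read, among them matches to SUPPRESSOR OF GAMMA RESPONSE 1, the Arabidopsis DNA damage factor that is also called NAC8. D1007_18021, D1007_18025 and D1007_18023 matched JUNGBRUNNEN 1 (NAC42 of Arabidopsis), a name on the senescence list. Their means in control roots were 39.55, 36.1 and 16.6 CPM, and they were tested in root but not in the fit of leaf libraries. Of 12 tested in leaf at 100% against 0%, none rose and 1 fell, beside 22.9% of all loci called. That was D1007_33191 (NTM1-like 9, in Arabidopsis a membrane-tethered stress factor), with 9.49 ± 3.08 CPM in 100% leaves and 37.7 ± 5.40 CPM in control leaves (SD, n = 3 each; log2 -1.74 ± 0.29, edgeR adjusted p = 0.0036). Of 20 tested in root at 100% against 0% none was called by edgeR, beside 10.2% of all loci. An unadjusted p under 0.05 was found for 6 of them, and for 6166 of all 21895 loci tested. Between the organs in the control, 3 of 20 were higher and 11 lower in leaf, where 25.9% of all loci were higher and 30.3% lower.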
